A study of Mus musculus with 57 samples.

Results

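D4 progeny of double-positive Sox1+FOXA2+ cells were compared with D4 progeny of FOXA2 single-positive Sox1-FOXA2+ cells, gene by gene, over 6 of the 57 bulk RNASeq libraries of the series, 3 per population, picked by their titles alone. Both populations came from 1 mouse ESC line, Sox1-EGFP/FoxA2mCherry, in which EGFP takes the place of 1 Sox1 allele and mCherry reports FOXA2. Cells were differentiated for 2 days in N2B27 with retinoic acid (RA, 1 uM), sorted by FACS on both reporters with reporter-free cells setting the gates, and 50000 cells of each population were replated on gelatin. They were then kept for a further 2 days in serum medium without LIF, again with RA at 1 uM, and about 500 harvested cells went into each library without a new sort. The populations therefore share line, RA, sort and replating, and were set apart by whether Sox1-EGFP was on at the D2 sort. Cells sorted by these gates already stood apart in Cubn at D2 (values below), so Sox1-EGFP was not their only difference. The question is how far cells that had switched on both a neuroectoderm and an endoderm reporter gave rise to progeny unlike those of cells with the endoderm reporter alone.

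FOXA2 is a pioneer factor of endoderm and SOX1 one of the earliest factors of neuroectoderm. Stem cell cultures can form extraembryonic endoderm besides embryonic germ layers. Its parietal form, driven by GATA6, GATA4 and SOX7, secretes the thick basement membrane that lines the yolk sac cavity, built from laminin and type IV collagen, while its visceral form takes up maternal proteins through the receptors cubilin and megalin and secretes carriers such as alpha-fetoprotein and transthyretin.

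Totals of the 6 libraries ran from 10170632 to 73126473 counts. Replicate 1 of both populations was shallow, with at most 13480175 counts, against at least 33568259 in replicates 2 and 3, and its 10 most abundant genes took 31.2% to 32.8% of counts against 17.3% to 20.6%. Sox1-FOXA2+ replicate 3 was the deepest library and had counts for 26281 genes, against 18384 and 18446 in its fellow replicates. Mitochondrial genes took 10.7% to 18.5% of counts and did not separate the populations (exact permutation p = 0.4).

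The sort markers were examined first. Foxa2 (chr2:148042877-148046969, GRCm38) had 326, 1150 and 264 normalized counts in the Sox1+FOXA2+ progeny and 2464, 2031 and 1093 in the Sox1-FOXA2+ progeny, where a normalized count is the raw count divided by a size factor for library depth. The libraries overlapped, because Sox1+FOXA2+ replicate 2 lay above Sox1-FOXA2+ replicate 3. The log2 fold change (Sox1+FOXA2+ minus Sox1-FOXA2+, here and throughout) was -1.74 ± 0.69 (SE), which was not called (adjusted p = 0.434, edgeR quasi-likelihood test with Benjamini-Hochberg adjustment, exact permutation p = 0.2 with 0.1 the smallest that 3 against 3 allows). Sox1 was listed at 0 in all 57 libraries, those sorted for Sox1-EGFP included, and so could not check the labels. Sox2 and Tubb3 were also at 0 throughout, undifferentiated D0 cells included. The paper detected SOX2 protein in self-renewal medium in another ESC line. These zeros are therefore not read as absent expression, and their reason was not tested.

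Of 20697 genes tested, 159 were called at an adjusted p under 0.05, which is 0.768% of them. The direction was uneven: 140 were lower in the Sox1+FOXA2+ progeny (0.676% of genes tested) and 19 were higher (0.0918%). The genes that fell included products of extraembryonic endoderm, the endocytic receptor Cubn, the laminin chain Lama1, the proteoglycan Srgn and the factors Gata4 and Sox7, at 12.3-fold to 43.3-fold lower levels. Genes of no list used here, Slc13a5, Tns4, Nxf7, Hkdc1 and Epas1, lay within the same range. Lists and members were chosen with earlier results of these data known, so their counts and medians below describe and do not test. The median log2 fold change was -2.29 over the genes called lower and 1.59 over those called higher, against 0.08 over all genes tested. No called gene had libraries of the 2 populations that overlapped, and 157 of the 159 are protein coding. Absence of overlap alone was common, at 6.7% of all genes tested in the lower and 10.6% in the higher direction.

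**Figure D1:**
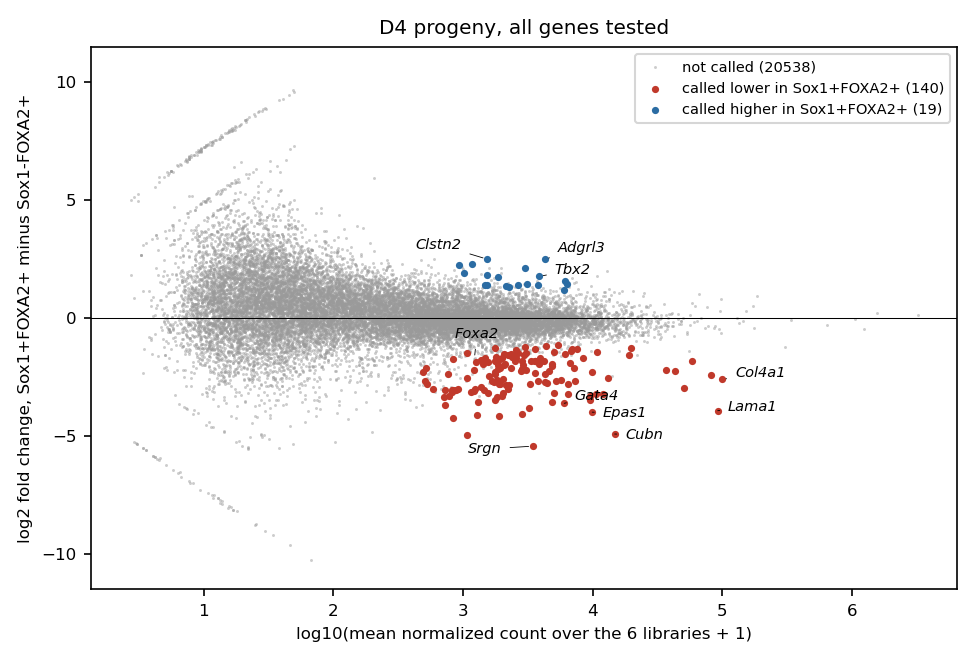
Each point is 1 of the genes tested in D4 progeny, with log10 of the mean normalized count plus 1 over the 6 libraries on the x axis and the log2 fold change, Sox1+FOXA2+ minus Sox1-FOXA2+, on the y axis. The 140 genes called lower (red) reach down to -5.43 for Srgn, the 19 called higher (blue) end at 2.50 for Clstn2, and Foxa2 lies among the genes not called (grey).

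Same-numbered libraries of the populations deviated together, and a fit with the replicate number as a block called 676 genes (3.27%), of which 432 were lower (2.09%) and 244 higher (1.18%), with all 159 among them. Leaving out 1 library gave 85 calls without Sox1+FOXA2+ replicate 1, 118 and 92 without its replicates 2 and 3, and 95 and 98 without Sox1-FOXA2+ replicates 1 and 2. Without Sox1-FOXA2+ replicate 3, there were 280 calls with a far more even split, 130 higher and 150 lower. Without all 3 shallow replicate 1 libraries of the D4 progeny, 85 genes were called, 81 lower and 4 higher.

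The list of endocytic receptors of yolk sac endoderm holds proteins with which visceral endoderm takes up nutrients. Of its 8 genes 4 were called lower, and all 8 had negative log2 fold changes with no overlap between libraries (median of the list -2.53). Over all genes tested, 6.7% had no overlap in that direction. Cubn encodes cubilin, the receptor for vitamin B12 bound to intrinsic factor and for many filtered proteins (chr2:13276338-13491813). It had 818, 1504 and 698 normalized counts in the Sox1+FOXA2+ progeny and 23481, 38629 and 23642 in the Sox1-FOXA2+ progeny. Every Sox1-FOXA2+ library thus stood more than 10-fold above the highest Sox1+FOXA2+ library, and the fitted difference was 30.3-fold (log2 fold change -4.92 ± 0.40, adjusted p = 1.57e-05), the smallest p of all genes tested.

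The promoter of Cubn is shown because this gene separated the populations most clearly and the factors Gata4 and Gata6, whose family binds GATA motifs, moved with it. The window is RefSeq's (GRCm38.p6, chr2:13491827-13492126, minus strand), 300 bases long, written 5′ to 3′ along the gene. It spans the transcription start of RefSeq, which lies upstream of the end of the GENCODE gene given above, so that this end falls outside the window. Capitals mark matches on either strand to a GATA form (AGATAA or AGATAG or TGATAA or TGATAG) or a FOXA form (TGTTTAC or TATTTAC or TGTTTGC or TATTTGC). No matches of the 2 kinds overlap in this window.
Cubn: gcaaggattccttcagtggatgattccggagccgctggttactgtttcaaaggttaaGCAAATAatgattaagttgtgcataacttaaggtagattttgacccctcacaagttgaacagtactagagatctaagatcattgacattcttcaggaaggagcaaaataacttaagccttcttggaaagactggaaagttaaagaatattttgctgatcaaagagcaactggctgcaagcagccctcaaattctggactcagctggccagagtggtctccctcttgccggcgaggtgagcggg
The window held 1 FOXA match, GCAAATA, starting 193 bases before RefSeq's start, and 0 GATA matches. Of all 32851 promoter windows, 29.8% held a GATA match and 13.5% a FOXA match. The windows matched to genes called lower, 153 windows of 107 genes, held them at 15.7% and 8.5%, and the 22 windows of 15 genes called higher at 22.7% and 4.55%. These shares describe letters and not binding.

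Partners of cubilin moved the same way. Dab2, the adaptor that links cubilin and megalin to clathrin, had 1547, 3644 and 1311 normalized counts in the Sox1+FOXA2+ and 15876, 26966 and 14022 in the Sox1-FOXA2+ progeny (log2 fold change -3.22 ± 0.47, adjusted p = 0.00183, and -3.87 without Sox1+FOXA2+ replicate 2). Lrpap1, the chaperone of megalin in the endoplasmic reticulum, had 1521, 3968 and 1860 against 22876, 21263 and 21120 (-3.22 ± 0.41, adjusted p = 0.000657). Megalin itself, Lrp2, had 10085, 19228 and 18471 against 49398, 98246 and 65357, a smaller difference of 4.75-fold (adjusted p = 0.00826). In each of these genes the lowest Sox1-FOXA2+ library stood above every Sox1+FOXA2+ library. The other members were not called: Amn, the membrane anchor of cubilin, at -2.81 ± 0.98 (adjusted p = 0.326), the folate receptor Folr1 at -1.84 ± 0.50 (0.128), Slc39a8 at -2.16 and Ctsc at -1.43. With the replicate block Folr1 was called too (adjusted p = 0.0406).

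Among secreted carriers of visceral endoderm no gene was called, and few were measured: 5 of 12 listed genes passed the count filter, with a median log2 fold change of -1.40. Apoe had 224, 445 and 460 normalized counts against 667, 1529 and 1079 (-1.63 ± 0.44, adjusted p = 0.125, and 0.0173 with the block). Of the defining members, Trf was at 0 in all 9 D4 progeny libraries, although 63.5% of its exon bases overlap other genes, Afp had at most 27.5 normalized counts and Ttr at most 110.

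Basement membrane genes split within the list. Lama1, Lamb1, Lamc1, Col4a1, Col4a2 and Sparc fell, 6 of 13 tested, while the linkers and other chains did not pass the test (median of the list -0.75). Lama1, the alpha chain of laminin-111 (chr17:67697259-67822647), had 11696, 14182 and 10498 normalized counts against 132262, 218076 and 166775. The populations lay an order of magnitude apart, with a 15.2-fold difference (log2 fold change -3.93 ± 0.36, adjusted p = 4.45e-05). Lamb1, its beta partner, had 11210, 14403 and 10576 against 73368, 114046 and 80602 (-2.99 ± 0.32, adjusted p = 0.000231). The gamma chain Lamc1 had 22589, 32116 and 26734 against 104311, 176092 and 125538 (-2.41 ± 0.32, adjusted p = 0.00103). All chains of the laminin-111 trimer were therefore lower, the alpha chain most.

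Type IV collagen is a trimer of mostly Col4a1 and Col4a2 chains, the net of the basement membrane. Col4a1 had 30651, 39064 and 18940 normalized counts in the Sox1+FOXA2+ progeny and 200431, 165062 and 142541 in the Sox1-FOXA2+ progeny (-2.61 ± 0.38, adjusted p = 0.00183). Col4a2 had 12776, 19134 and 9433 against 64821, 61413 and 52081 (-2.19 ± 0.35, adjusted p = 0.00428). In both genes Sox1+FOXA2+ replicate 2 was the highest of its population, and no library crossed over. The genes lie head to head on chromosome 8 and their promoter windows are printed because they overlap by 78 bases, chr8:11312777-11312854, in capitals below (RefSeq, GRCm38.p6, each 5′ to 3′ along its own gene). Col4a1 is chr8:11312777-11313076 on the minus strand and Col4a2 is chr8:11312555-11312854 on the plus strand.
Col4a1: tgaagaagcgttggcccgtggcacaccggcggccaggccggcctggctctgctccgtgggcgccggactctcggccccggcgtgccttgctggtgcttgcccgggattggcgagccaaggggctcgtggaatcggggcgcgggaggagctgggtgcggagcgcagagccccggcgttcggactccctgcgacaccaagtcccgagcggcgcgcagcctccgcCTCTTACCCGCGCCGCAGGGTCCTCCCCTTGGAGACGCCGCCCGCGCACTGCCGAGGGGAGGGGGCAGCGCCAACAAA
Col4a2: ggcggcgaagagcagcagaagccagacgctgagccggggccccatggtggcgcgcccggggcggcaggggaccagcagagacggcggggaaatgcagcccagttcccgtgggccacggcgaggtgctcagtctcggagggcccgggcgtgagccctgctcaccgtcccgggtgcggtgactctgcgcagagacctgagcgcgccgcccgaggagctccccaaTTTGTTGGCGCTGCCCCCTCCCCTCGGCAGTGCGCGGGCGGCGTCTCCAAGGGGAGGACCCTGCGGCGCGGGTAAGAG
Neither window held a GATA or FOXA match of the forms above, and G and C made up 74.0% and 73.7% of their letters. The annotated genes overlap by 22 bases, so nearly all their reads could be told apart.

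Sparc, a matricellular protein that binds collagen, had 23631, 34936 and 23402 normalized counts against 70300, 114609 and 86263 (-1.82 ± 0.31, adjusted p = 0.00757). Its call did not hold without Sox1+FOXA2+ replicate 1 (adjusted p = 0.0549) or replicate 3 (0.0658). Together Lama1, Lamb1, Lamc1, Col4a1, Col4a2 and Sparc took 0.261%, 0.425% and 0.285% of all counts in the Sox1+FOXA2+ progeny and 1.43%, 2.33% and 1.86% in the Sox1-FOXA2+ progeny. By contrast the nidogens Nid1 and Nid2, which bridge laminin and collagen, were at -0.51 ± 0.34 and -0.75 ± 0.32 (adjusted p = 0.795 and 0.496) and perlecan, Hspg2, at -0.48 ± 0.28 (0.709). Lama5, the alpha chain common in embryonic epithelia, had 10069, 8986 and 8697 against 6053, 3639 and 6090 (0.73 ± 0.28, adjusted p = 0.416, and 0.0451 with the block). That the list split was not tested as such.

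Enzymes that modify and fold collagen followed, with 5 of 12 called, all lower, and a median of -1.15. The prolyl hydroxylase chains P4ha1 (1074, 2334 and 1612 against 6110, 12513 and 10566 normalized counts) and P4ha2 stood at -2.63 ± 0.37 and -2.67 ± 0.40 (adjusted p = 0.0017 and 0.00238). Plod2, a lysyl hydroxylase, was at -2.66 ± 0.40 (0.00225) and P3h2, a prolyl 3-hydroxylase, at -2.69 ± 0.40 (0.00206), with 28.4% of the exon bases of P3h2 shared with other genes. These values lie close together, between -2.63 and -2.69. The collagen chaperone Serpinh1 had the smallest called difference of the list, 11389, 14818 and 9756 against 26282, 31139 and 24354 (-1.28 ± 0.26, adjusted p = 0.0289), and its call did not hold without Sox1+FOXA2+ replicate 1 (0.175) or 3 (0.207) or Sox1-FOXA2+ replicate 1 (0.052) or 2 (0.142). P4hb and Pdia5 were not called (adjusted p = 0.168 and 0.186) but were with the block (0.00449 and 0.0286) and with no filter on low counts, P4hb also with DESeq2 and Pdia5 with the 6 libraries alone. Outside the lists, and chosen after their values were seen, further genes of the secretory route were called lower: Colgalt1, which glycosylates collagen (-1.98 ± 0.32), Kdelr3, which returns chaperones to the endoplasmic reticulum (-3.15 ± 0.59), and Rpn1, a subunit of the oligosaccharyltransferase (-1.30 ± 0.28).

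Of 11 endoderm transcription factors, 4 were called, all lower (median of the list -1.998). Gata4 (chr14:63198922-63271692) had 869, 1438 and 574 normalized counts in the Sox1+FOXA2+ progeny and 12007, 12077 and 9251 in the Sox1-FOXA2+ progeny, a 12.3-fold difference (-3.62 ± 0.46, adjusted p = 0.000657). Sox7 had 652, 536 and 218 against 6333, 8738 and 2967 (-3.81 ± 0.68, adjusted p = 0.0096). Gata6, which directs primitive endoderm formation, had 1738, 2032 and 1382 against 6173, 9935 and 6425, a 4.7-fold difference (-2.23 ± 0.36, adjusted p = 0.00462). The GATA factors thus differed in size, and neither population was without them. Without the 3 shallow replicate 1 libraries, 2 of the list were called.

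Sox17 and Hnf4a had no overlap between libraries and were not called. Sox17, a factor of primitive and definitive endoderm, had 243, 727 and 117 normalized counts against 1645, 1834 and 933 (-2.10 ± 0.89, adjusted p = 0.484, exact permutation p = 0.1, and adjusted p = 0.0392 with the block). Hnf4a had 95.9, 89.0 and 68.7 against 649, 162 and 163 (-1.998 ± 0.95, adjusted p = 0.57). The remaining members were not called either: Foxa1 at -0.08, Cebpa at 0.78, Foxa3 at 1.24 and Prdm1 at 2.31. Foxa1, Cebpa and Foxa3 were low in both populations, at no more than 310 normalized counts in any library. Over the whole list, 6 genes had no overlap in the lower and 1 in the higher direction. The shares over all genes tested were 6.7% and 10.6%.

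Secreted and surface products of parietal endoderm included the gene with the largest fold among those called. Srgn, serglycin, the core protein of secretory granule proteoglycans (chr10:62493833-62527451), had 166, 286 and 47.9 normalized counts against 5763, 8853 and 5590, a 43.3-fold difference (-5.43 ± 0.57, adjusted p = 0.000231). Pth1r, the receptor for parathyroid hormone-related protein that marks parietal differentiation, had 486, 308 and 227 against 8005, 6187 and 1762 (-4.08 ± 0.50, adjusted p = 0.000657). Sox1-FOXA2+ replicate 3 was the lowest of its population for Pth1r and still lay above all Sox1+FOXA2+ libraries. Fst, follistatin, which binds activin, had 780, 2046 and 447 against 5452, 16762 and 4943 (-3.16 ± 0.55, adjusted p = 0.00821). It stayed called at a log2 fold change of -4.06 when Sox1+FOXA2+ replicate 2 was left out and of -2.28 when Sox1-FOXA2+ replicate 2 was, and that of Srgn was -6.21 without Sox1+FOXA2+ replicate 2. Pdgfra, a marker of primitive endoderm, was at -1.82 ± 0.27 (adjusted p = 0.00238) and Tfpi, an inhibitor of coagulation, at -2.39 ± 0.41 (0.00774).

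In all, 6 of the 12 listed parietal genes were called, all lower (median -2.33). The last was Ctsl, a lysosomal protease (-2.28 ± 0.43, adjusted p = 0.0138), whose call did not hold without Sox1+FOXA2+ replicate 3 (0.0696), which was at -2.92 without Sox1+FOXA2+ replicate 2, and of whose exon bases 26.8% are shared with other genes. Thrombomodulin, Thbd, had 32.0, 125 and 29.1 normalized counts against 133, 419 and 423 (-2.47 ± 0.94, adjusted p = 0.409). Other members were close to the median of all genes, Itga3 at 0.07 and Sema6a at 0.26. Genes outside the lists that were called lower, again named after their values were seen, included the lysosomal protease Lgmn (-3.21 ± 0.39), the fatty acid binding protein Fabp3 (-3.30 ± 0.45), the motor Myo6 that drives endocytic vesicles (-2.35 ± 0.29) and Klb, the coreceptor of FGF19 and FGF21 type hormones (-3.04 ± 0.44).

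**Figure D2:**
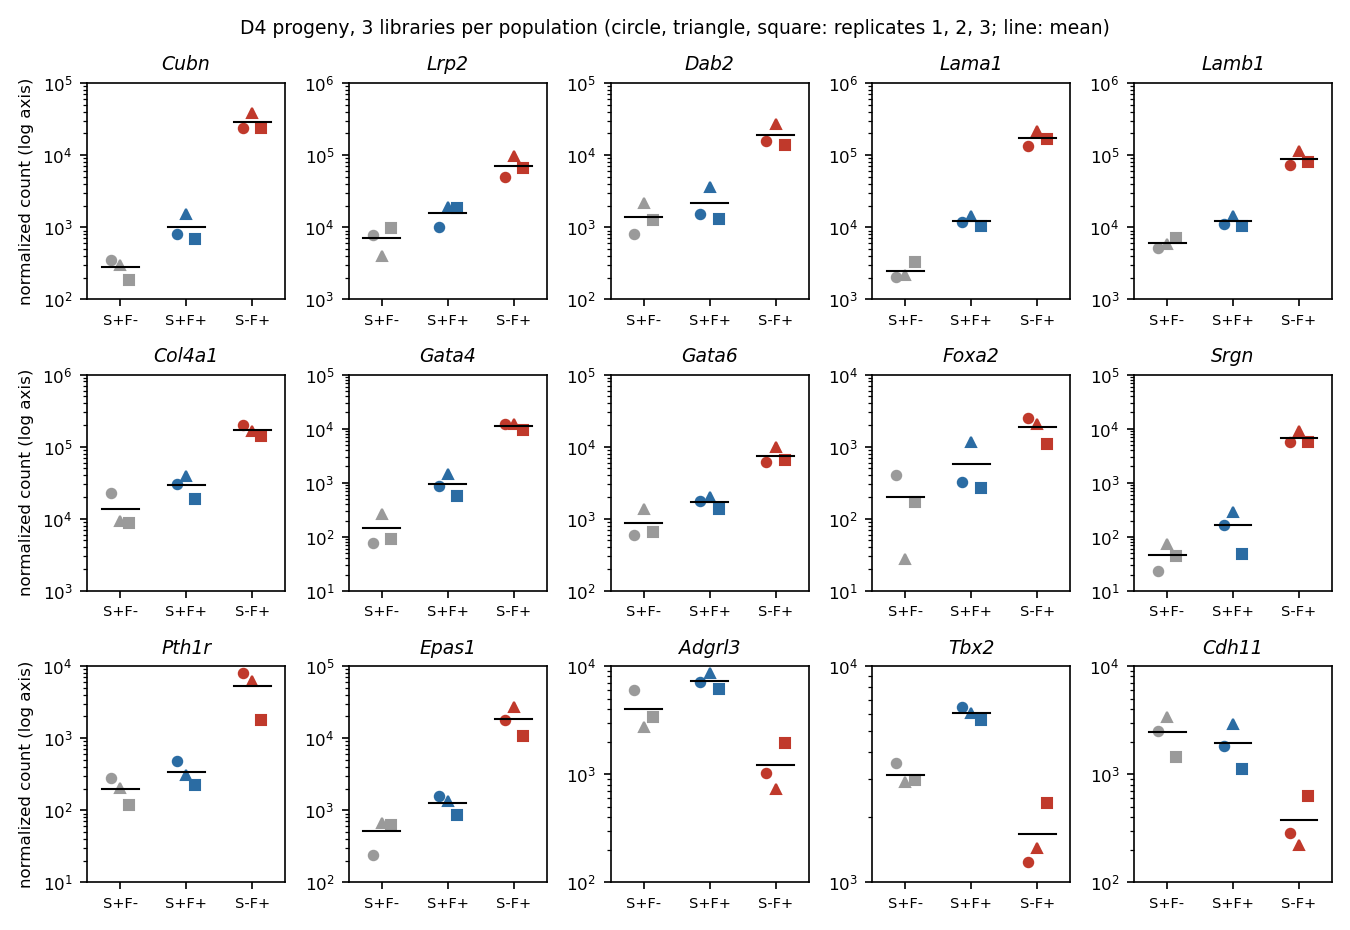
Normalized counts (log axis, range set per gene) of 15 genes in the 3 libraries of each D4 progeny population, Sox1+FOXA2- (S+F-), Sox1+FOXA2+ (S+F+) and Sox1-FOXA2+ (S-F+), with the mean as a line. Genes of endoderm stand highest in Sox1-FOXA2+ progeny, Foxa2 overlaps between S+F+ and S-F+, and Adgrl3, Tbx2 and Cdh11 stand lowest in Sox1-FOXA2+ progeny.

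The rule for the largest differences also named genes of no list. Epas1, the hypoxia factor HIF-2alpha (chr17:86753700-86833410), had 1588, 1345 and 872 normalized counts in the Sox1+FOXA2+ and 17815, 27110 and 10844 in the Sox1-FOXA2+ progeny (-3.99 ± 0.45, adjusted p = 0.000325). Hkdc1, a hexokinase-like gene, was at -4.13 ± 0.54 (adjusted p = 0.00088) and Nxf7, of the mRNA export factor family, at -4.14 ± 0.46 (0.000325). No Sox1+FOXA2+ library had more than 377 normalized counts of either, and no Sox1-FOXA2+ library fewer than 1690. Slc13a5, a citrate transporter, was at -4.96 ± 1.00 (adjusted p = 0.0254) and was not called without Sox1+FOXA2+ replicate 2 (0.0906) or 3 (0.0817) or Sox1-FOXA2+ replicate 1 (0.0636). Tns4, a focal adhesion protein, was at -4.26 ± 0.93 (adjusted p = 0.0405) and lost its call in each of the 6 fits that left out 1 library (adjusted p from 0.0513 to 0.162). Without Sox1+FOXA2+ replicate 2 the log2 fold changes of Hkdc1, Nxf7 and Tns4 were -4.76, -4.89 and -4.94.

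Several genes of the pluripotency list were lower in Sox1+FOXA2+ progeny, 4 of 20 called. Dnmt3b, a de novo DNA methyltransferase of the epiblast, had 818, 1788 and 922 normalized counts against 10575, 6811 and 4960 (-2.73 ± 0.38, adjusted p = 0.0017). Klf4 had 633, 1129 and 618 against 3291, 3577 and 1948 (-1.97 ± 0.36, adjusted p = 0.0118). Lin28a (-1.68 ± 0.35, 0.0315) and Sall4 (-1.89 ± 0.41, 0.0396), regulators of early embryonic cells, completed the 4. These members are also used outside naive pluripotency, and the core factors gave no call: Pou5f1 was at -2.38 ± 1.41 (adjusted p = 0.716) with at most 672 normalized counts, and Nanog at -0.37 ± 1.23 (0.981) with at most 311. The median of the list was -0.56, with 6 genes above and 14 below 0. Dnmt3l, the cofactor of Dnmt3b, and L1td1, both outside the lists and named after their values were seen, were called lower too (-3.18 ± 0.48 and -2.74 ± 0.55).

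The pluripotency calls rested on few libraries. Without 1 library at a time, Klf4 lost its call in 3 of 6 fits, without Sox1+FOXA2+ replicate 1 (adjusted p = 0.069) or 3 (0.0747) or Sox1-FOXA2+ replicate 2 (0.0629). Lin28a lost it in 4, without Sox1+FOXA2+ replicate 1 (0.14) or 2 (0.135) or Sox1-FOXA2+ replicate 1 (0.144) or 2 (0.157), and Sall4 in all but the fit without Sox1-FOXA2+ replicate 3 (0.0836 to 0.176). Dnmt3b kept it in every one. In Sall4, Sox1-FOXA2+ replicate 3 had 4659 normalized counts against 13955 and 12501 in its fellow replicates, with 2601, 2904 and 3387 in the Sox1+FOXA2+ progeny.

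Metabolic lists leaned the same way with single calls. Insig1, which holds back sterol synthesis, had 352, 506 and 227 normalized counts against 1183, 6658 and 2101 (-3.33 ± 0.65, adjusted p = 0.0195), the 1 called of 14 cholesterol synthesis genes (median -0.45). The synthesis enzyme Sqle was not called, at -0.51. Tpi1, a glycolytic enzyme, was the 1 called of 16 glycolysis and hypoxia genes (-1.54 ± 0.34, adjusted p = 0.0407, median -0.69). Under the block 5 of the 16 were called lower, Ldha (0.000884) and Pgk1 (0.000906) among them, which stood at 0.116 and 0.123 without it. Insig1 lost its call without Sox1+FOXA2+ replicate 1 (0.069) or 3 (0.0781) or Sox1-FOXA2+ replicate 2 (-2.23, adjusted p = 0.13), and Tpi1 in all but the fit without Sox1-FOXA2+ replicate 3 (0.0997 to 0.21). No cell cycle gene of 23 was called, although 19 were negative (median -0.42), and Mki67 had 16233, 12975 and 16559 normalized counts against 30196, 33589 and 20955 (-0.99 ± 0.27, adjusted p = 0.135, and 0.0105 with the block, where cyclin D2, Ccnd2, was called lower too).

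Genes called higher in the Sox1+FOXA2+ progeny were few, at 19, but this count moved with the fit. It was 244 with the replicate block and 130 without Sox1-FOXA2+ replicate 3. The 19 called were Clstn2, Adgrl3, Cdh11, Zfp536, Hs6st3, Samd5, Dclk2, Tbx2, Adam12, Prkg1, Plxdc2, Rian, Fat4, Gas1, Zeb2, Epha7, Zfp618, Smad1 and Dbn1, at log2 fold changes between 1.19 and 2.50, so that the largest was 5.66-fold. Several act in adhesion, axon and cytoskeleton biology, among them the adhesion receptors Adgrl3, Clstn2, Cdh11, Fat4 and Epha7 and the actin-binding drebrin Dbn1. No list used here covers that theme, and it was not tested.

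Adgrl3, latrophilin 3, an adhesion receptor of neurons (chr5:81020138-81825133), had 7139, 8703 and 6090 normalized counts in the Sox1+FOXA2+ progeny and 1023, 724 and 1938 in the Sox1-FOXA2+ progeny (2.49 ± 0.36, adjusted p = 0.00172). Tbx2, a T-box repressor (chr11:85832551-85841948), had 6464, 6085 and 5630 against 1245, 1439 and 2320 (1.77 ± 0.27, adjusted p = 0.00307). Both calls held in all 6 fits without 1 library. Sox1-FOXA2+ replicate 3 was the highest of its population in both genes, as it was in Clstn2, Cdh11, Zfp536, Dclk2, Adam12 and Prkg1. Zfp536, a repressor of neuronal differentiation, had 2189, 1209 and 1281 against 231, 182 and 486 (2.27 ± 0.40, adjusted p = 0.00936), but lost its call without Sox1+FOXA2+ replicate 1 (0.0549) or Sox1-FOXA2+ replicate 1 (0.0534). Samd5 (1.90 ± 0.35, adjusted p = 0.0121) did so without Sox1+FOXA2+ replicate 2 (0.0739) or Sox1-FOXA2+ replicate 1 (0.0559).

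The other calls among the 10 largest were less stable. Clstn2, a synaptic cadherin relative, was at 2.50 ± 0.53 (adjusted p = 0.0315) and at 0.132, 0.144 and 0.0777 without Sox1+FOXA2+ replicate 2 or Sox1-FOXA2+ replicates 1 and 2, with a log2 fold change of 3.24 without Sox1-FOXA2+ replicate 3. Hs6st3, a heparan sulfate sulfotransferase, was at 2.14 ± 0.44 (0.0289) and at 0.116, 0.0584, 0.0534 and 0.0525 without Sox1+FOXA2+ replicates 2 and 3 or Sox1-FOXA2+ replicates 1 and 2. Adam12, a metalloprotease, was at 1.74 ± 0.34 (0.0171) and at 0.0909, 0.081 and 0.0695 without Sox1+FOXA2+ replicate 2 or Sox1-FOXA2+ replicates 1 and 2. Each of these still had no library of the Sox1-FOXA2+ progeny above any of the Sox1+FOXA2+ progeny. Dclk2, a microtubule-binding kinase, was at 1.85 ± 0.39 (0.0327) and stayed called only without Sox1-FOXA2+ replicate 3 (otherwise 0.0612 to 0.12). Prkg1, the cGMP-dependent kinase, was at 1.59 ± 0.33 (0.0307), with 0.0691 and 0.124 without Sox1+FOXA2+ replicates 1 and 2 and 0.15 and 0.148 without Sox1-FOXA2+ replicates 1 and 2.

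Genes of the cadherin switch, by which epithelial cells take on a mesenchymal or neural character, were the only list with more than 1 gene called higher, 2 of 10 (median 1.21). Cdh11, a mesenchymal cadherin (chr8:102632095-102785642), had 1821, 2909 and 1119 normalized counts against 285, 220 and 631 (2.28 ± 0.45, adjusted p = 0.022). Zeb2, a repressor of E-cadherin that also acts in neural development, had 5352, 6228 and 5172 against 1419, 1779 and 2770 (1.40 ± 0.28, adjusted p = 0.0263). Neither call was firm: Cdh11 was at 0.0961, 0.112 and 0.0922 without Sox1+FOXA2+ replicate 2 or Sox1-FOXA2+ replicates 1 and 2 and had a log2 fold change of 2.87 without Sox1-FOXA2+ replicate 3, and Zeb2 was called only without Sox1-FOXA2+ replicate 3 (otherwise 0.0516 to 0.125). With the block 5 of the 10 were called, N-cadherin Cdh2 (10504, 10508 and 11793 against 3202, 2746 and 7106, adjusted p = 0.00324, and 0.0933 without the block), Zeb1 and Fn1 being the others. Without the 3 shallow replicate 1 libraries none of the list was called.

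Epithelial genes did not mirror this. None of 16 was called, with a median of -0.25, E-cadherin Cdh1 at 2767, 8151 and 5915 against 6306, 6843 and 10050 (-0.53 ± 0.47, adjusted p = 0.88) and the keratins Krt8 and Krt18 at -0.51 and -0.16. The libraries overlapped for each of these genes. Esrp1, a splicing factor of epithelia, was at -2.70 (adjusted p = 0.187) and Cldn6 at -1.91 (0.345). Both were called lower with the block (-3.13 and -1.75, adjusted p = 0.0363 and 0.00614) and with no filter on low counts, and Esrp1 also with DESeq2 and without Sox1+FOXA2+ replicate 2.

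Neural progenitor genes had mostly positive values without a call. Of 20 listed, 12 were tested, 10 were positive and none was called (median 0.88). In the higher direction 4 of the 12 had no overlap, against 10.6% of all genes tested. Nes, the intermediate filament of neural progenitors, had 28721, 12139 and 11506 normalized counts against 14293, 5520 and 8267 (0.80 ± 0.39, adjusted p = 0.59). Sox11 had 4883, 6714 and 3209 against 2095, 2386 and 1480 (1.22 ± 0.32, 0.111), and Cpe, a peptide-processing enzyme, had 3713, 4059 and 4244 against 480, 1036 and 2462 (1.50 ± 0.41, 0.134). Within each replicate number the Sox1+FOXA2+ library was the higher for these 3 genes, and with the block 5 of the 12 were called higher: Cpe (0.00263), Sox11 (0.00178), Nes (0.0372), Ncam1 (0.0348) and Sox9 (0.0257). Pax6 was low in both, at 185, 190 and 206 against 88.9, 132 and 74.3 (0.87 ± 0.61, adjusted p = 0.805).

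The Meis, Pbx and COUP-TF factors, which act in hindbrain and many RA-responsive tissues, behaved alike, with 8 of 10 positive, none called and a median of 0.93. Nr2f2 (COUP-TFII) came closest, with 6899, 5921 and 5252 normalized counts against 2055, 2733 and 2731 (1.16 ± 0.29, adjusted p = 0.0918). Meis2 had 21726, 10740 and 19359 against 6653, 4986 and 11194 (1.09 ± 0.31, 0.168). For Meis2, Sox1-FOXA2+ replicate 3 lay above the lowest Sox1+FOXA2+ library. With the block 5 were called higher, among them Nr2f2 (0.00303), Meis2 (0.00454), Meis1 (0.0214) and Tshz1. Without Sox1-FOXA2+ replicate 3, Meis2 (1.47, adjusted p = 0.028) was called without any block, as were Cpe (2.26, 0.00467) and Ncam1 (1.50, 0.0172) of the neural list and Cdh2 (1.78, 0.00321) and Zeb1 (1.85, 0.00549) of the cadherin list.

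Hox genes leaned upward, 14 of 17 tested (median 1.13), with 9 having no overlap in that direction, against 10.6% of all genes tested, and none called. Hoxc4 had 1674, 1104 and 1082 normalized counts against 258, 465 and 495 (1.54 ± 0.39, adjusted p = 0.0982, and 0.0132 with the block, the 1 Hox gene called there). Hoxb9 had 1690, 1252 and 889 against 623, 493 and 521 (1.13 ± 0.34, 0.192) and Hoxb4 had 2703, 1099 and 1245 against 587, 749 and 724 (1.17 ± 0.37, 0.248). Hox clusters are full of overlapping transcripts (52.9% of the exon bases of Hoxb3 are shared), and 13 of the 39 listed Hox genes were at 0 in all 6 libraries. Of 15 RA response genes, 1 was called, the retinol receptor Stra6 (498, 377 and 347 against 1094, 1401 and 1278, -1.73 ± 0.38, adjusted p = 0.0404), which lost its call in each fit without 1 library (0.0741 to 0.275). Cyp26a1, which degrades RA, had 1380, 3841 and 2565 against 4794, 8599 and 8480 (-1.57 ± 0.59, 0.393, and 0.00988 with the block), while Dhrs3, which returns retinal to retinol, was at 1.32 ± 0.61 (0.552, and 0.0415 with the block).

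Markers of other cell types were checked over whole lists. Mesendoderm genes had low counts, and none of 4 tested genes of 9 was called. The list summed to 33.9 to 371 normalized counts in the Sox1+FOXA2+ and 204 to 463 in the Sox1-FOXA2+ progeny, and T stood at 0 in 4 of the 6 libraries. These zeros are not read as absent expression either. No gene was called among 12 neural crest and mesenchyme genes, all positive (median 1.03, summed level 14880 to 25804 against 8943 to 20119), with Col1a2 at 1.40 ± 0.32 (adjusted p = 0.0567) and 2 called with the block. Trophoblast genes summed to 3026 to 5530 against 1868 to 2238, without overlap, and none of 8 was called (Gata3 at 1.31 ± 0.33, 0.0996). Neuronal differentiation genes overlapped, at 2736 to 4530 against 2249 to 3741, with none of 13 called in either fit. In the blood and endothelium list the 1 call was Runx1 (-1.67 ± 0.35, adjusted p = 0.0303), lost without Sox1+FOXA2+ replicate 1 (0.164) or 3 (0.147) or Sox1-FOXA2+ replicate 1 (0.161) or 3 (0.0613). Whether these cell types had a part in the differences was not tested.

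In bulk libraries a smaller share of endoderm cells and less endoderm RNA per cell cannot be told apart. The 6 endoderm lists were all lower in sum, without overlap between the populations. Transcription factors summed to 3373 to 6601 against 23621 to 39313 normalized counts, endocytic receptors to 14757 to 29431 against 114865 to 188966, and basement membrane to 173510 to 234406 against 721313 to 927159. The gap was smaller for parietal products, at 18470 to 23532 against 48260 to 73657, for collagen processing, at 35576 to 52645 against 82315 to 123399, and for visceral carriers, at 537 to 1130 against 1334 to 3048. In D4 progeny of Sox1+FOXA2- cells these lists summed to 14460 to 20672, 32695 to 40377 and 702 to 1306, overlapping Sox1+FOXA2+. Sums follow the most abundant members. The medians rank otherwise, at -2.33 for parietal products and -0.75 for basement membrane. Why the gaps were unequal was not tested.

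The remaining lists held few calls. Of 13 smooth muscle and serum response genes, 11 were positive, and the 1 call went the other way: Ccn2, a target of YAP signalling that shares 23.2% of its exon bases with other genes, had 831, 1585 and 983 normalized counts against 2748, 6088 and 6092 (-2.23 ± 0.46, adjusted p = 0.0282), lost without Sox1+FOXA2+ replicate 1 (0.131) or 3 (0.112) or Sox1-FOXA2+ replicate 2 (0.0922) or 3 (0.0534). Among imprinted growth genes 11 of 13 were positive (median 0.95), with 1 called. Rian, a maternally expressed noncoding RNA, had 11922, 8647 and 7601 against 3060, 2994 and 3739 (1.42 ± 0.26, adjusted p = 0.0132), lost without replicate 1 of either population (0.0696 and 0.0658) or Sox1-FOXA2+ replicate 2 (0.0581). With the block 5 of the 13 were called higher, H19 (0.0024), Mest (0.000486), Peg10 (0.00663) and Igf2r (0.0216) besides Rian. Among ligands and inhibitors of BMP, Nodal and Wnt none of 18 was called, with Dkk1 at 76.7, 12.7 and 102 against 551, 1318 and 535 (-3.79 ± 1.02, adjusted p = 0.128, and 0.0238 with the block). None was called either in the FGF (15 tested), hedgehog and ventral neural (7), node and notochord (6) or immediate early and stress (14) lists. With the block, calls appeared in some of these lists: the tropomyosins Tpm1 and Tpm2 rose among smooth muscle genes, the FGF feedback phosphatase Dusp6 rose while the ligands Fgf3 and Fgf10 fell, and Atf3 of the stress list fell.

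**Figure D3:**
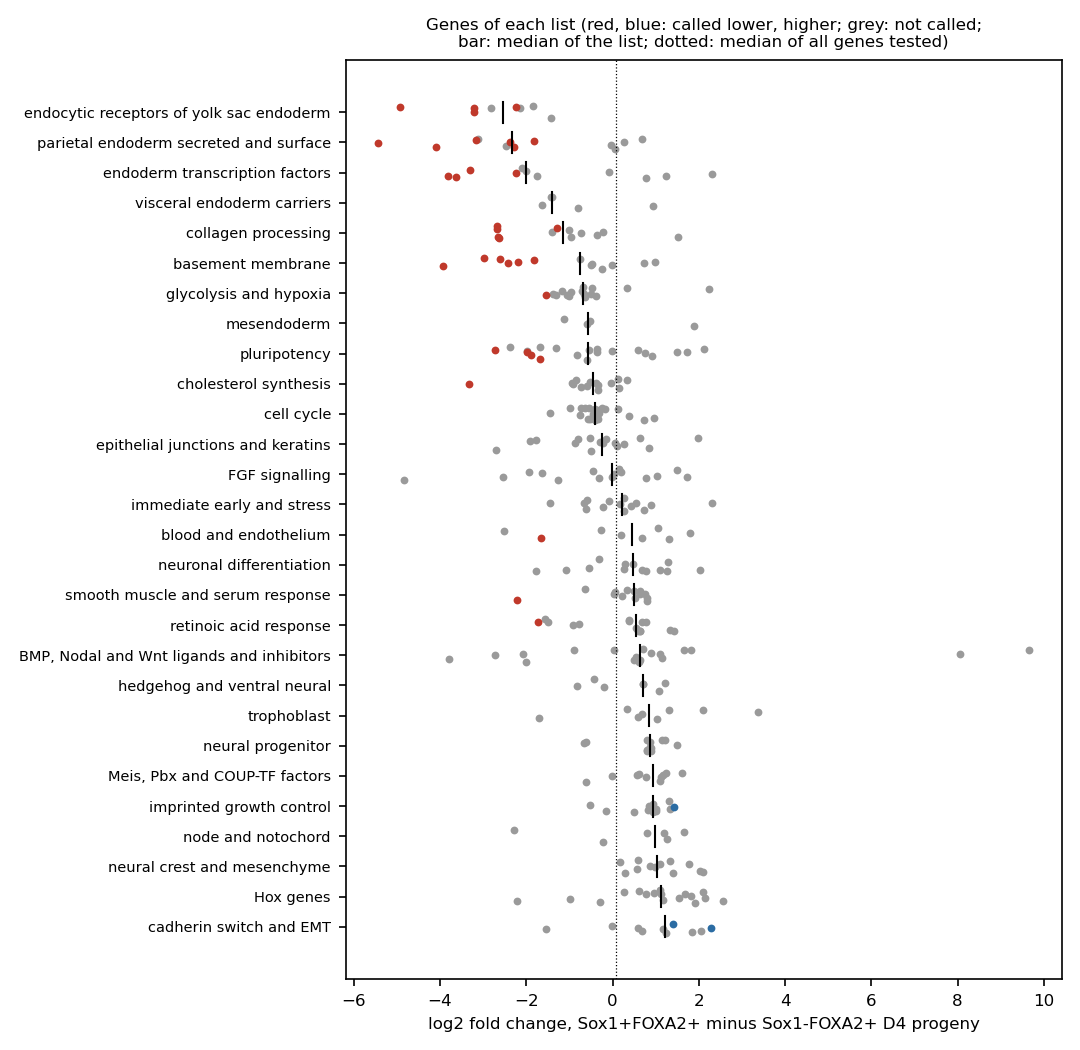
Log2 fold change, Sox1+FOXA2+ minus Sox1-FOXA2+ D4 progeny, of the tested genes of all 28 lists, ordered by the list's median (bar), with genes called lower in red, called higher in blue and not called in grey. Endocytic receptors have the lowest median, -2.53, the cadherin switch list the highest, 1.21, and the dotted line at 0.08 is the median of all genes tested.

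The D4 progeny of Sox1+FOXA2- cells, sorted for the other reporter alone, give the levels a scale, though both comparisons share the Sox1+FOXA2+ libraries. Sox1+FOXA2+ against Sox1+FOXA2- progeny gave 0 calls with edgeR (0%) and 86 with DESeq2. The edgeR fit had 954 genes at an unadjusted p under 0.05, fewer than the 1035 to be met if no gene differed. With the block there were 25 calls (0.121%), 17 higher (0.0821%) and 8 lower (0.0387%) in Sox1+FOXA2+. Lama1 had 2017, 2154 and 3329 normalized counts in Sox1+FOXA2- progeny, below every Sox1+FOXA2+ library (2.20, adjusted p = 0.0938, and 4.75e-05 with the block). Gata4 had 77.6, 262 and 92.5 there (2.60, 0.212, and 4.75e-05 with the block) and Cubn 349, 296 and 188 (1.83, 0.276, and 0.000389 with the block). All 3 genes thus had the order Sox1+FOXA2-, Sox1+FOXA2+, Sox1-FOXA2+ with no overlap at either step, and the step to Sox1-FOXA2+ was the larger on the log2 scale in each. Srgn and Dab2 did not have it: their Sox1+FOXA2- libraries (23.3, 73.4 and 44.2, and 815, 2137 and 1265) overlapped those of Sox1+FOXA2+. Gata6, Sox7, Lamb1, Lamc1 and Lrp2 had the order too. In Sparc, P4ha1, P4ha2, Plod2, P3h2, Serpinh1 and Tfpi the Sox1+FOXA2- libraries again overlapped those of Sox1+FOXA2+. The log2 fold changes of these genes against Sox1+FOXA2- ran from -0.54 (P3h2) to 0.39 (P4ha2). Pdgfra had 2262, 2176 and 2314 in Sox1+FOXA2-, above all Sox1+FOXA2+ libraries (-0.50). Tbx2 lay outside this order, with 3562, 2900 and 2977 in Sox1+FOXA2-, below all Sox1+FOXA2+ libraries (0.88, adjusted p = 0.852, and 0.118 with the block).

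The same contrast was made in other libraries, which share none with the D4 progeny: cells sorted at D4 without replating, and D6 progeny, replated at D2 and kept for 4 days. In D4 sorted cells 247 of 24857 genes were called (0.994%), 194 lower (0.78%) and 53 higher (0.213%) in Sox1+FOXA2+. Of the 140 genes that were lower in D4 progeny, 136 had a negative log2 fold change there, where 41% of all genes tested did, and 60 were called lower (median -1.97, against 0.31 over all genes). Of the 19 higher, 18 were positive, where 58% of all genes were, and none was called (median 0.97). The exceptions were Rian, at -0.46, and the 4 genes Sfmbt2, Myo5b, Slco3a1 and Plekha6, called lower in D4 progeny and positive in sorted cells. Lama1 stood at -6.36 in D4 sorted cells and Gata4 at -4.68. In cells sorted at D2 by the same gates, Cubn had 65.9, 436 and 257 normalized counts in Sox1+FOXA2+. It had 1151, 5647 and 1795 in Sox1-FOXA2+ cells at D2. For Lama1, Gata4 and Foxa2 the D2 libraries of these gates overlapped. The contrast at D2 was not tested.

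In D6 progeny 896 of 24025 genes were called (3.73%), 445 lower (1.85%) and 451 higher (1.88%). All 140 genes lower at D4 were negative at D6, against 46.6% of all genes tested, and 110 were called lower (median -1.90). All 19 genes higher at D4 were positive, against 53%, and 15 were called higher (median 1.92). Tbx2 was at 3.65 in D6 progeny and Cdh11 at 3.22. Genes that missed the call at D4 and were called at D6 included Foxa2 (-2.14, adjusted p = 0.0315), Nr2f2 (2.08, 0.00108), Meis2 (2.01, 0.00276), Sox11 (2.73, 1.87e-05), Hoxb9 (3.66, 0.000556) and Nes (1.55, 0.0107), but a call at one day and not at the other does not show a difference between days.

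**Figure D4:**
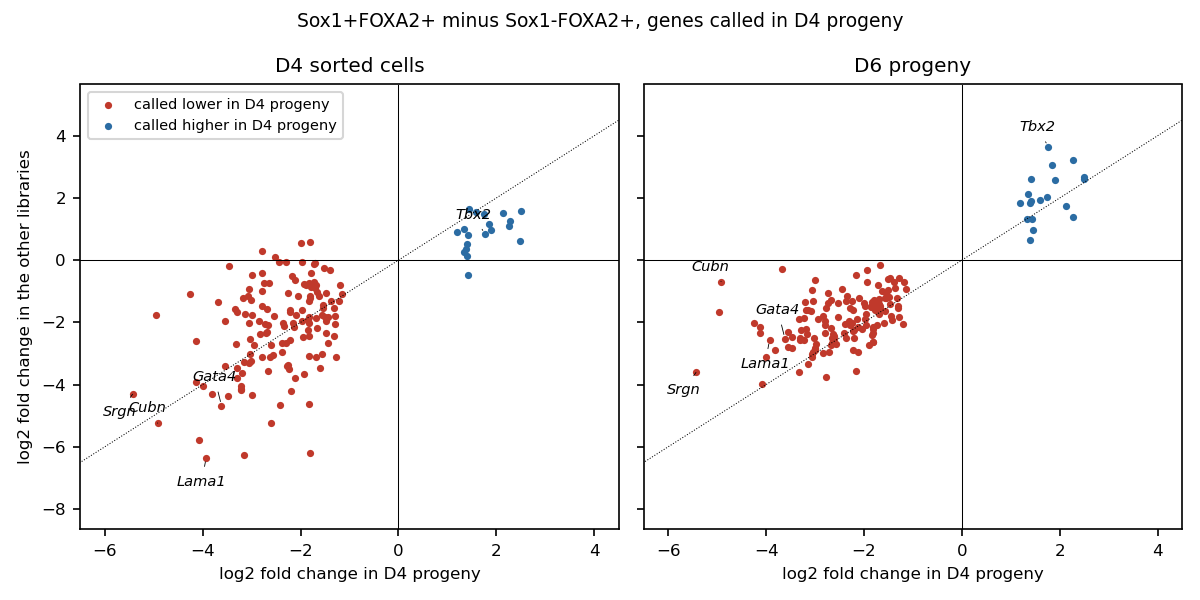
Log2 fold changes, Sox1+FOXA2+ minus Sox1-FOXA2+, of the 159 genes called in D4 progeny (x axis) against those in D4 sorted cells (left) and D6 progeny (right), red for genes called lower and blue for genes called higher in D4 progeny, with the dotted line marking equal values. All but 5 points lie in the same direction in D4 sorted cells and all do in D6 progeny, where Cubn lies near 0.

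The difference itself was tested as an interaction. Between D4 progeny and D4 sorted cells, 0 of 24857 genes were called (0%, edgeR), and DESeq2 called 361. No call does not show that the differences were equal: the edgeR term was 2.45 for Lama1 and 1.08 for Gata4, neither called. The edgeR fit had 1476 genes at an unadjusted p under 0.05, where 1243 would be met if no gene differed. Progeny and sorted cells differ in replating, medium and the day of the sort together. Sorted cells were gated on both reporters at D4, while progeny were gated at D2 and not sorted again. Between D4 and D6 progeny, 2 of 24025 genes were called (0.00832%, edgeR), Cubn and Sox9, and DESeq2 called 38. The edgeR fit had 1091 genes at an unadjusted p under 0.05, fewer than the 1201 to be met if no gene differed. Cubn had 20360, 12708 and 6418 normalized counts in Sox1+FOXA2+ D6 progeny and 15908, 16097 and 28933 in Sox1-FOXA2+ D6 progeny. The separation seen at D4 was thus not present at D6 (-0.69, adjusted p = 0.414), and the difference between days was -4.22 (adjusted p = 0.00115). Sox9, a factor of neural progenitors and many epithelia, had 4704, 4080 and 2751 against 2224, 2385 and 1592 at D4 (0.79 ± 0.29, adjusted p = 0.374). At D6 it had 4007, 3989 and 3293 against 355, 516 and 334 (3.18, adjusted p = 1.45e-06), and the difference between days was -2.36 (0.0358). The Sox1+FOXA2+ libraries of both days overlapped for Sox9, while each Sox1-FOXA2+ library of D6 lay below all those of D4. Leaving out 1 of the 12 libraries at a time, Cubn kept its call throughout (-4.63 to -3.78, highest adjusted p = 0.00504). Sox9 kept it in 3 of the 12 fits, those without Sox1-FOXA2+ replicate 1 (0.0479) or 3 (0.022) of D4 or replicate 2 of D6 (0.0203), and stood at 0.0546 to 0.319 in the other 9.

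**Figure D5:**
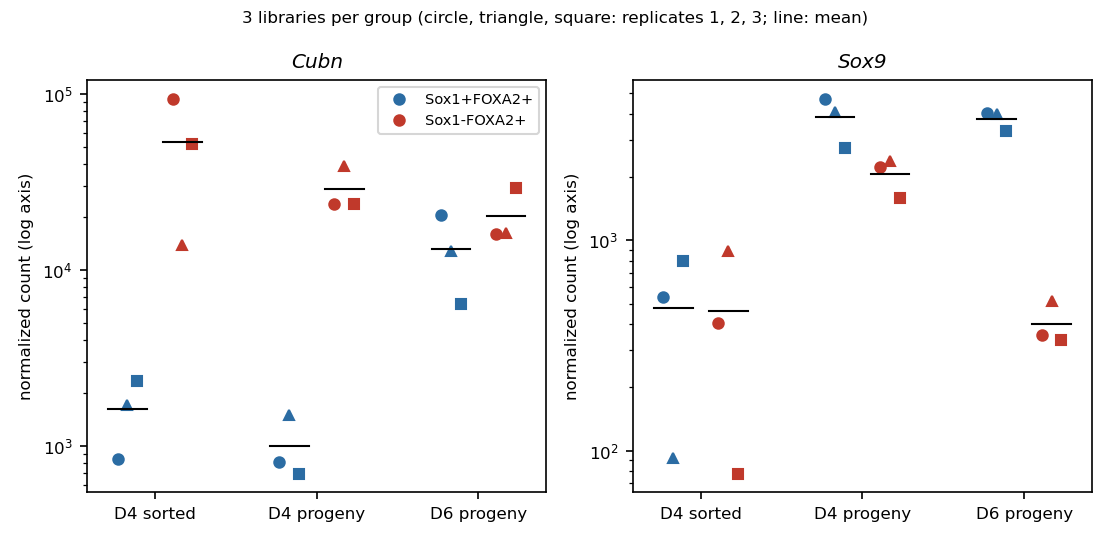
Normalized counts (log axis) of Cubn and Sox9 in Sox1+FOXA2+ (blue) and Sox1-FOXA2+ (red) libraries of D4 sorted cells, D4 progeny and D6 progeny, 3 libraries each with the mean as a line. Cubn is apart by population at D4 in both arms and overlaps in D6 progeny, while Sox9 is furthest apart in D6 progeny.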

How the data were processed

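Bulk RNASeq of 57 libraries (19 groups of 3, about 500 cells each) was deposited by the authors as 1 table of raw counts per gene, made with STAR, SAMtools and featureCounts on GENCODE M21 (GRCm38). Versions and the strand setting are not given in the sources used here. All 55450 gene IDs matched that annotation, and 92 lines naming no gene held 0 counts. The labels number the replicates without naming separate cultures, so p-values measure the spread between these libraries.

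The 9 D4 progeny libraries were fitted together with edgeR 4.0.16 (quasi-likelihood test, TMM, prior count 0.125, genes kept by filterByExpr at 10 counts and 15 in total), in R 4.3.3, with Benjamini-Hochberg adjustment over all genes tested and a threshold of 0.05. Differences between arms were interaction terms over 12 libraries. Each was taken from a fit of the 9 D4 progeny libraries together with the 9 D4 sorted or the 9 D6 progeny libraries of the same gates. Normalized counts are counts divided by DESeq2 1.42.0 size factors over all 57 libraries. The scripts were tested on simulated data. Alternatives were DESeq2, its size factors in edgeR, no filter, a replicate block, other sets of libraries and each library left out. Leaving out the 3 shallow replicate 1 libraries together was chosen after seeing the data. Replicate numbers paired the D4 progeny: over 5000 genes, deviations of same-numbered Sox1+FOXA2+ and Sox1-FOXA2+ libraries correlated at 0.624, 0.442 and 0.261, and the pairing comes from the titles.

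Genes were named by rule: the sorted reporters, genes the study names, called genes of 28 lists with examples of the rest, the 10 largest differences each way among called genes with a mean of at least 100 normalized counts and no overlap, and the called genes of the difference tests. Members and lists were chosen with earlier results of these data known. Promoter windows are RefSeq's. A few list members that the rule names are not reported here, though the list counts include them.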

Additional observations from a re-analysis of the deposited data

Results flagged for a closer look

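The difference between Sox1+FOXA2+ and Sox1-FOXA2+ cells was not the same in D4 and D6 progeny for Cubn and Sox9, by the test of the difference itself. For Cubn, the log2 fold change in D4 progeny minus that in D6 progeny was -4.22 (adjusted p = 0.00115, edgeR interaction term). For Sox9 it was -2.36 (adjusted p = 0.0358), and this call was kept in 3 of the 12 fits that left out 1 library. The cause was not tested.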

How the results depend on the processing

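In D4 progeny, the count of 159 calls for Sox1+FOXA2+ minus Sox1-FOXA2+ depended on the fit. It was 534 with DESeq2 (186 higher and 348 lower), 488 without a filter on low counts (155 and 333), 676 with the replicate block (244 and 432), 253 with only the 6 libraries (30 and 223), 23 with all 57 (0 and 23) and 158 with DESeq2 size factors (21 and 137). Of the 159, these fits shared 157, 159, 159, 159, 23 and 154. Leaving out 1 library gave 85 to 280 and leaving out the 3 shallow replicate 1 libraries 85, with 79 shared. Against Sox1+FOXA2- progeny, 0 became 86 with DESeq2, 81 without a filter, 25 with the replicate block and 0 to 10 without 1 library, the 10 without Sox1+FOXA2- replicate 3. For the difference from D4 sorted cells, 0 became 361 with DESeq2, 78 without a filter and 0 to 11 without 1 library, the 11 without D4 sorted Sox1+FOXA2+ replicate 3. For that from D6 progeny, 2 became 38, 59 and 1 to 4. The replicate block left both difference counts at 0 and 2.

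Of 51 named genes called, 28 kept the call in all 6 fits without 1 library and none changed sign in any fit. Among genes not called, Krt18 turned positive without Sox1+FOXA2+ replicate 3 (0.0066) or Sox1-FOXA2+ replicate 2 (0.069, range without 1 library -0.48 to 0.069), and Nanog without Sox1+FOXA2+ replicate 2 (0.22), Sox1-FOXA2+ replicate 1 (0.55, range -2.51 to 0.55) or the 3 shallow libraries (0.83). The causes were not tested. The shallow replicate 1 libraries and 3 libraries per population limit the calls among low genes.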
